A study of Mus musculus with 20 samples.

Results

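The IL-1 family ligands Il1a, Il1b, Il18 and Il33, the antagonist Il1rn, the receptors Il1r1, Il1r2 and Il1rl1, and the cytokines Il6 and Tnf were followed in liver and white adipose tissue (WAT) of obese mice with and without CD44. The 10 genes are a list of names, drawn up with earlier results of these data known: a probe belonged to a gene when the array annotation, or the current symbol of its transcript accession, gave that name. They are 10 of the 16358 genes whose symbols could be matched to RefSeq, were read by 15 of the 41174 probes other than controls, and the brightest probe of each gene over all 20 arrays carries the results, with the others given beside it. Il33 is annotated on the array under its older clone name, 9230117N10Rik (NM_133775).

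The arrays compared male CD44KO(HFD) mice, which lack the hyaluronan receptor CD44 in all cells, with wildtype WT(HFD) mice. All were 7 months old, on the C57BL/6 background, and had eaten a 35% fat diet for 21 weeks, so obesity is shared by every group and no lean or normal diet group was read here. Liver and WAT were each read on 5 arrays per genotype, 1 array per sample, which gives 4 groups named WT(HFD) liver, CD44KO(HFD) liver, WT(HFD) WAT and CD44KO(HFD) WAT. The labels do not state whether equal replicate numbers in liver and WAT are the same mouse, and p-values measure the spread between these samples. Both tissues are mixtures of cells, so fewer cells of a type and less RNA per cell cannot be told apart.

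As background, IL-1alpha and IL-1beta are inflammatory cytokines that signal through the type I IL-1 receptor (Il1r1) with a shared accessory chain. Il1rn encodes an antagonist that occupies this receptor without signalling, and the type II receptor (Il1r2) is a decoy that binds the ligand and does not signal. IL-1beta and IL-18 are made as inactive precursors and are cut by caspase-1 in inflammasomes, so that their mRNA does not report the active protein. IL-33 is a nuclear protein of stromal, endothelial and mesothelial cells that is released on damage and acts on ST2, the product of Il1rl1, on mast cells, regulatory T cells and group 2 innate lymphoid cells. Il1rl1 gives a membrane form that signals, ST2L, and a soluble form that binds IL-33 as a decoy. IL-6 and TNF are cytokines of the same inflammatory circuits, which are known to be raised in obese WAT.

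The Il1rl1 probes are shown because they separate the forms of the receptor. The array annotation assigns the brightest probe to transcript variant 1 (NM_001025602), the membrane form, and the next to transcript variant 2 (NM_010743), the soluble form. The third carries the accessions of both variants, is named for variant 2, and lies in an interval of 863 bases on the mm7 build for its 60 bases, so that it crosses an intron. In the lines that follow, the first 30 of 60 bases are given for the isoform probes and for Il33, and the whole probe for the probe across the intron.
Il1rl1 variant 1, A_52_P484194, chr1:40705585-40705644: tgaccttatttgcttaccagttacaggtaa
Il1rl1 variant 2, A_51_P339793, chr1:40688351-40688410: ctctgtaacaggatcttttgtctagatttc
Il1rl1 across an intron, A_52_P19955, chr1:40680766-40681628: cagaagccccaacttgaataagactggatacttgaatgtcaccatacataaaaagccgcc
Il33, A_51_P122321, chr19:29660344-29660403: tcgtacggctgtaacaggtataattgtttc

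The promoters of Il1rl1 and Il6 are shown because Il1rl1 has alternative starts and Il6 had the widest positive difference of the members in WAT, one that did not pass the test. RefSeq lists a distal and a proximal start for Il1rl1, and the distal one is known for its use in mast cells and other blood-derived cells. In the 250 bases before each start on GRCm38.p6, capitals mark matches on either strand to the GATA motif GATAAG, the kappaB motif GGGANTTNC or the AP-1 motif TGANTCA, which did not overlap each other here.
Il1rl1 distal start, chr1:40429320-40429569, plus strand: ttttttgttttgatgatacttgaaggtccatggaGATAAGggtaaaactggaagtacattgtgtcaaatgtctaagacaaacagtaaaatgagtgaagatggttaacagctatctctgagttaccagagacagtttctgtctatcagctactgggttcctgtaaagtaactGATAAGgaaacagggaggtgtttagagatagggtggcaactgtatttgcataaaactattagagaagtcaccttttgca
Il1rl1 proximal start, chr1:40439379-40439628, plus strand: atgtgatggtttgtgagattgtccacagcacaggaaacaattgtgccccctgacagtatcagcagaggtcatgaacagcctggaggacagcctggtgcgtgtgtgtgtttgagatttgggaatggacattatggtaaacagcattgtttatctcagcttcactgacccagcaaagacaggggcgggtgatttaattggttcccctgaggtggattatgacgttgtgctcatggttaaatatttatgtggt
Il6, chr5:30012864-30013113, plus strand: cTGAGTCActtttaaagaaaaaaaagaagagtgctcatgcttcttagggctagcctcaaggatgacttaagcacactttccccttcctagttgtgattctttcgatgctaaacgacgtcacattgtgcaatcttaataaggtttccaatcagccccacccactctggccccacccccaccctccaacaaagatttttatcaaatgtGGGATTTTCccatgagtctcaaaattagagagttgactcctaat
The distal Il1rl1 promoter held 2 matches to GATAAG and the proximal one held 0, where 6.55% of 32851 mouse promoter windows of this length held at least 1. The Il6 promoter held 1 match to GGGANTTNC, 44 bases before the start, a motif found in 3.54% of all windows, and 1 match to TGANTCA, found in 6.75%. Of the other members' promoters, the window of Il1a and the first of the 3 windows of Il1rn each held 1 match to TGANTCA, and those of Il1b, Il18, Il33, Il1r1, Il1r2 and Tnf held none of the 3 motifs. A match is a description of letters and not evidence of binding.

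The knockout was visible in every array: the brightest Cd44 probe lay at 0.11 to 0.83 in WT(HFD) liver and at -4.19 to -3.24 in CD44KO(HFD) liver, and at 3.55 to 4.56 against -0.67 to -0.35 in WAT. A second Cd44 probe fell by 4.57 ± 0.20 in liver and by 4.28 ± 0.22 in WAT (SE). Both stayed well above background on all 5 CD44KO(HFD) WAT arrays. The third probe, dim in both tissues, showed no fall in liver (0.20 ± 0.78, adjusted p = 0.888, limma). Here and below, a level is the log2 signal minus the 75th percentile of its array. Summed hepatocyte marker signal was 2490 to 3660 in liver and 4.32 to 53.5 in WAT, in multiples of the array's 75th percentile, while summed adipocyte marker signal was 533 to 1340 in WAT and 16.4 to 120 in liver. One array stood apart. WT(HFD) WAT replicate 1 had 89.54% of its spots well above background, against 63.23% to 69.49% on the other 9 WAT arrays, and its correlation with another WT(HFD) WAT array fell as low as 0.825. The genotype difference in WAT of each member's brightest probe, where it could be tested, is therefore given with and without this array. Other WAT values are from all arrays unless stated. Between the genotypes 13.6% of 24689 probes tested passed an adjusted p of 0.05 in liver, and 0.0398% of 27653 in WAT (limma).

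By their brightest probes all 10 genes differed between WT(HFD) WAT and WT(HFD) liver on the scaled log2 scale, where 70.5% of 28988 probes tested did (limma, adjusted p below 0.05). Il1rl1, the ST2 receptor, showed the widest difference. Its membrane-form probe was near background in WT(HFD) liver, at -4.40 ± 0.43 (SD, n = 5), and reached 1.29 ± 0.48 (SD, n = 5) in WAT, a difference of 5.69 ± 0.32 (SE) and 51.6-fold (limma, adjusted p = 1.36e-11). Over 6 alternatives the membrane-form difference ran from 3.74 to 7.8. The soluble-form probe differed by 3.13 ± 0.83 (SE, adjusted p = 0.00252, limma). The dim probe across the intron differed by 0.62 ± 0.81 (SE, adjusted p = 0.507, limma), or by -0.36 without WT(HFD) WAT replicate 1. The genes higher in WAT were Il33 by 1.90 ± 0.21, Il1rn by 2.17 ± 0.29, Il1r1 by 1.14 ± 0.20, Il1r2 by 3.19 ± 0.37 and Tnf by 1.64 ± 0.31 on the log2 scale (SE). The genes lower in WAT differed by -3.29 ± 0.39 for Il6, -1.54 ± 0.16 for Il18, -1.51 ± 0.44 for Il1b and -2.11 ± 0.74 for Il1a. By the brightest probe each difference passed the threshold also without WT(HFD) WAT replicate 1. In some of these genes few arrays of the dimmer group measured the probe: 1 of 5 WT(HFD) livers for Il1r2, and 2 of 5 WT(HFD) WAT arrays for Il6 and 1 of 5 for Il1a. With dim signals raised to the floor of each array, the difference was 2.19 for Il1r2, -3.24 for Il6 and -1.43 for Il1a (adjusted p = 5.13e-07, 2.3e-07 and 0.031, limma). The second Il1a probe differed by -1.85 ± 1.01 (SE) and did not pass (adjusted p = 0.11, limma), and by -3.22 without WT(HFD) WAT replicate 1. Second probes of Il1rn and Il1r2, dim in liver, differed by 3.27 ± 0.39 and 2.39 ± 0.50 (SE).

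Il1a, the ligand kept inside cells until damage, was measured above background in 3 of 5 WT(HFD) livers and, in WAT, on none but WT(HFD) replicate 1. Against the other 4 WT(HFD) WAT arrays its measured means were -4.19 in WT(HFD) liver and -7.30 in WAT (limma without that replicate, adjusted p = 2.2e-07). With those 4 WAT arrays raised to their floor, the liver mean was 4.15-fold higher. This is not a lower bound, since the liver mean includes replicates 3 and 4, at -5.19 and -4.70, which were not well above background. Tissue cannot be told apart from slide and scanner, since liver and WAT lay on different slides that were scanned on different instruments. The order also rests on the scaling. With unscaled signals Il1b and Il18 were higher in WAT, by 0.59 and 0.57, and Il1a showed no difference (0.00), while the other 7 genes kept the same direction under every scaling tried. The differences of Il1r2 and Tnf did not pass the threshold with the normexp background (adjusted p = 0.0532 and 0.116).

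**Figure D1:**
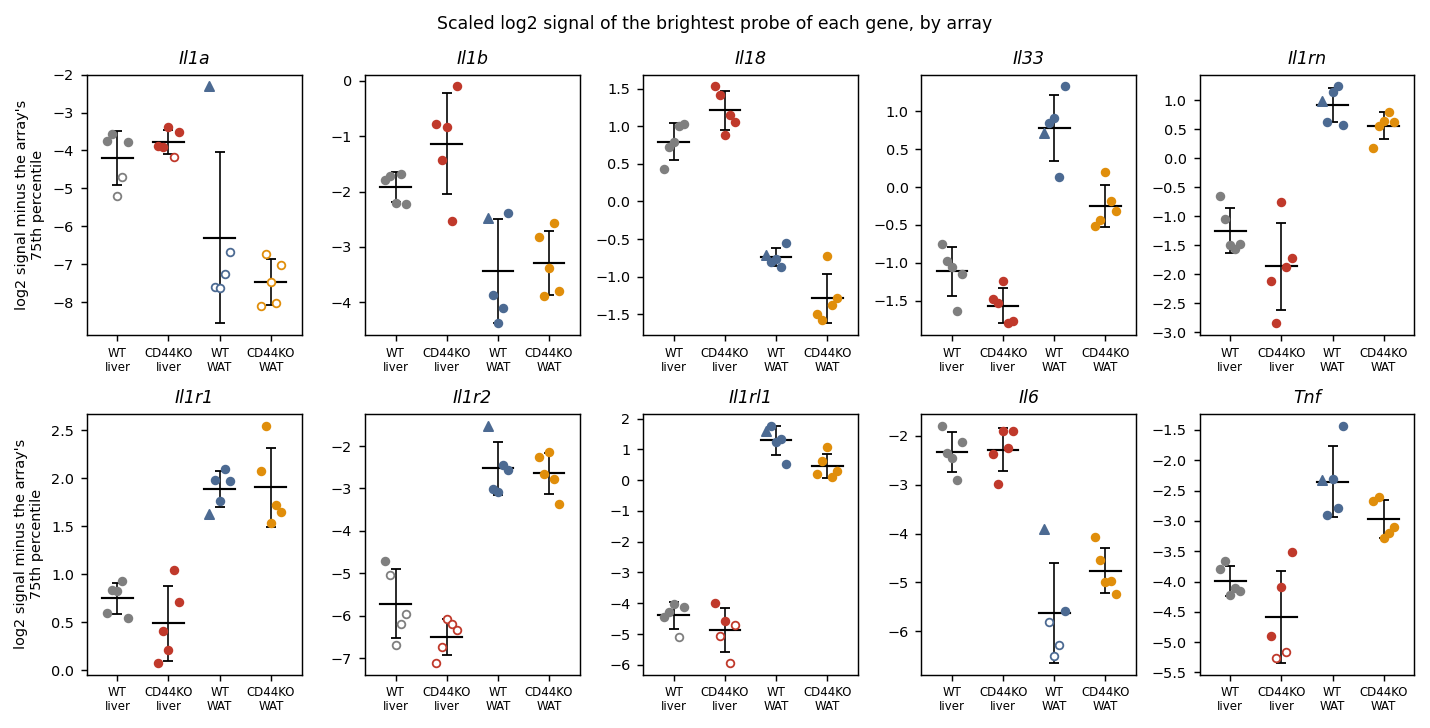
Scaled log2 signal of the brightest probe of each of the 10 genes (vertical axes, each with its own range) in the 4 groups of 5 arrays. Points are arrays, open where the probe was not well above background, the triangle is WT(HFD) WAT replicate 1, and bars are the mean ± SD; Il1rl1 and Il33 sit highest in WT(HFD) WAT and lower in CD44KO(HFD) WAT, and Il1a is open on all but 1 WAT array.

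Between the genotypes no member passed the adjusted threshold in either tissue. In liver 9 members could be tested and 0 passed, where 13.6% of all probes did. The unadjusted p was below 0.05 for 2 of them, Il18 and Il33, against 32.2% of all probes. Il1r2 was too dim to test in liver: 1 of the 10 arrays, WT(HFD) replicate 1, read its brightest probe well above background. In WAT 9 members could be tested and 0 passed, where 0.0398% of all probes did, and the unadjusted p was below 0.05 for 3, Il18, Il33 and Il1rl1, against 14.9% of all probes. Il1a was too dim in WAT. The median difference of the members was -0.26 in liver and -0.36 in WAT on the log2 scale, where the median of all probes tested was 0.08 and -0.06. Of the members tested, 5 of 9 were lower in CD44KO(HFD) liver and 6 of 9 in CD44KO(HFD) WAT, against 38.7% and 55.3% of all probes.

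The WAT calls changed with the weighting of the arrays and in the fit of all 20 arrays, where Il33 passed beside 6.57% of all probes. They did not change on leaving out WT(HFD) WAT replicate 1. Without it 0 of 9 members passed and 4 had an unadjusted p below 0.05, with Il6, which few WT(HFD) arrays measured, added to the 3 named, where 0.0687% and 14.8% of all probes did. With array weights from limma, 4 of 9 members passed, namely Il33, Il1rl1 and Il18, which fell, and Il6, which rose, where 10.3% of all probes passed, 4.73% lower and 5.58% higher. These weights gave WT(HFD) WAT replicate 1 a weight of 0.0899 and CD44KO(HFD) WAT replicate 5 a weight of 9.97, so the weighted calls lean on few arrays.

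**Figure D2:**
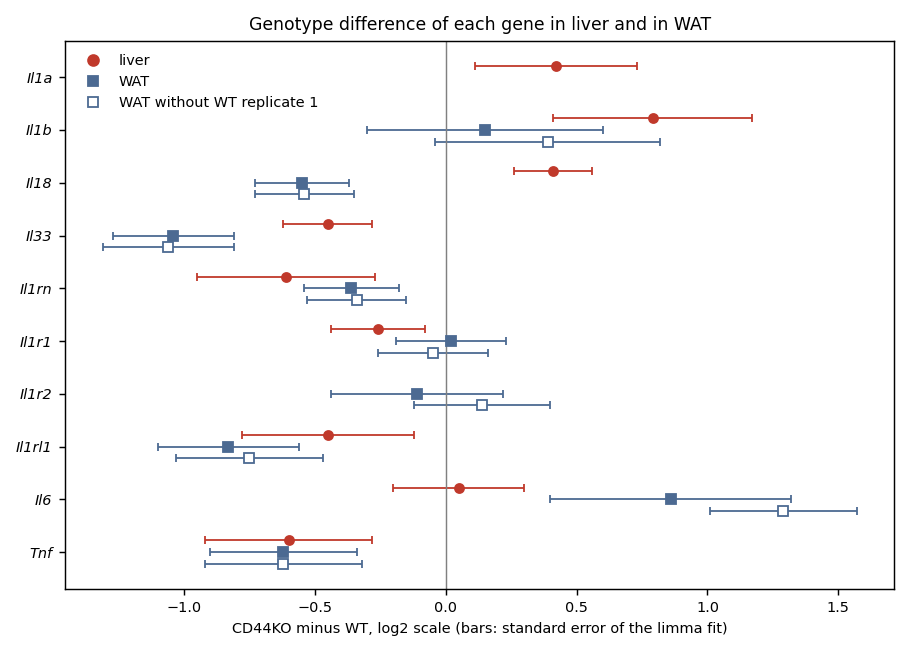
Difference between CD44KO(HFD) and WT(HFD) for each gene on the log2 scale (horizontal axis, bars are the standard error of the limma fit) in liver (circles), in WAT (filled squares) and in WAT without WT(HFD) replicate 1 (open squares). Il33 at -1.04 and Il1rl1 at -0.83 lie farthest below 0 in WAT and Il6 at 0.86 farthest above, Il18 lies on opposite sides of 0 in the 2 tissues, and genes too dim in a tissue have no mark.

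Il33 and the membrane-form probe of its receptor were each lower in CD44KO(HFD) WAT, and neither passed the adjusted threshold. The 5 WT(HFD) WAT arrays, replicates 1 to 5, read 0.71, 0.84, 0.91, 0.13 and 1.33 for Il33, and the 5 CD44KO(HFD) arrays read -0.51, -0.44, 0.20, -0.19 and -0.31. The groups overlapped by 1 array on each side, WT(HFD) replicate 4 and CD44KO(HFD) replicate 3. The difference was -1.04 ± 0.23 (SE), or 2.05-fold lower (unadjusted p = 0.00117, adjusted p = 0.165, limma; exact permutation p = 0.0159, two-sided), and it was -1.06 ± 0.25 (adjusted p = 0.121, limma) without WT(HFD) WAT replicate 1. Within the slides that held both genotypes the difference was -0.80 and -0.82, and with slide as a block it was -0.81 ± 0.22 (adjusted p = 0.195, limma). It passed with array weights, at -1.0 ± 0.17 (adjusted p = 0.00843), and in the fit of all 20 arrays, at -1.04 ± 0.21 (adjusted p = 0.0104), where 6.57% of probes passed; over the 12 alternatives other than leaving out an array the adjusted p ran from 0.00843 to 0.56 and the difference from -1.09 to -0.56, the latter with median scaling.

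The membrane-form probe of Il1rl1 read 1.61, 1.75, 1.25, 1.32 and 0.52 in WT(HFD) WAT and 0.19, 0.63, 1.07, 0.10 and 0.31 in CD44KO(HFD) WAT. WT(HFD) replicate 5 lay inside the CD44KO(HFD) range, and CD44KO(HFD) replicates 2 and 3 inside that of WT(HFD). The difference was -0.83 ± 0.27 (adjusted p = 0.227, limma; exact permutation p = 0.0238, two-sided) and -0.75 ± 0.28 without WT(HFD) replicate 1 (adjusted p = 0.259, limma). Within slides it was -1.0 and -0.10, the latter against a single CD44KO(HFD) array, and over the 12 alternatives that keep all arrays it ran from -1.11 with array weights to -0.35 with median scaling (adjusted p = 0.00662 to 0.679, limma). The soluble-form probe, which was well above background on all 10 WAT arrays, differed by -0.47 ± 0.48 (adjusted p = 0.633, limma), with WT(HFD) at -4.65 to -1.77 around CD44KO(HFD) at -4.15 to -2.74. The probe across the intron was dim, measured above background in 3 of the WT(HFD) WAT samples and 1 of the CD44KO(HFD) ones, and differed by -1.56 ± 0.95, which became -0.59 ± 0.42 without WT(HFD) replicate 1 (adjusted p = 0.45 and 0.534, limma). The membrane-form and soluble-form probes thus pointed down in CD44KO(HFD) WAT. The probe across the intron was tested only because WT(HFD) arrays measured it, so its direction is not counted with theirs. Whether the differences of the 3 probes differ from each other was not tested.

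Markers of the cells that make or sense IL-33 differed in both directions in the same arrays. Of the 9 mast cell markers tested, all 9 were lower, with a median difference of -3.08, and 0 passed the adjusted threshold. Summed mast cell signal was 19.3 to 46.7 in WT(HFD) WAT and 1.69 to 11.5 in CD44KO(HFD) WAT, and 19.3 to 42.8 in WT(HFD) without replicate 1. The mast cell protease Cma1 differed by -3.31 ± 0.65 (adjusted p = 0.15, limma) and the tryptase Tpsb2 by -3.71 ± 0.61 (adjusted p = 0.117, limma), and both were well above background on all 10 WAT arrays. Without WT(HFD) replicate 1 the tryptase Tpsab1 passed (adjusted p = 0.0244, limma), where 0.0687% of all probes did, but it was tested only because WT(HFD) arrays measured it. Every CD44KO(HFD) WAT array read it as too close to background, so that only a bound can be given, at least 3.82-fold higher in WT(HFD) without that replicate and at least 5.26-fold with it. A further mast cell marker was also tested through WT(HFD) alone, measured on 3 of its arrays and 1 CD44KO(HFD) array. With array weights, which lean on few arrays, 4.73% of all probes passed lower and 5.58% higher. Under these weights 8 of 9 mast cell markers passed, all lower. All 7 mesothelium markers tested were lower too, with a median difference of -2.18 and 0 past the threshold under either setting, and their summed signal was 2.76 to 12.7 in WT(HFD) WAT, with or without replicate 1, and 1.18 to 3.92 in CD44KO(HFD) WAT, the ranges overlapping. All 7 endothelial cell markers were higher in CD44KO(HFD) WAT, with a median difference of 0.66, or 0.48 without WT(HFD) replicate 1, and 0 past the threshold. Their summed signal was 12.7 to 23.7 in WT(HFD) and 30 to 48 in CD44KO(HFD), and 4 of 7 markers passed with array weights. Of 9 fibroblast and stromal cell markers 4 were higher and 5 lower, 0 past the threshold, with sums of 345 to 518 and 397 to 517; with array weights 3 passed, all lower. The part of these markers in the Il33 and Il1rl1 signals was not tested.

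Genes of the cells that respond to IL-33, such as regulatory T cells and type 2 lymphocytes, were in part too dim to read in WAT. Of 12 listed genes 8 could be tested and 0 passed; 7 were lower and the median difference was -0.61, or -0.29 without WT(HFD) replicate 1, beside -0.06 and 0.03 over all probes.

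**Figure D3:**
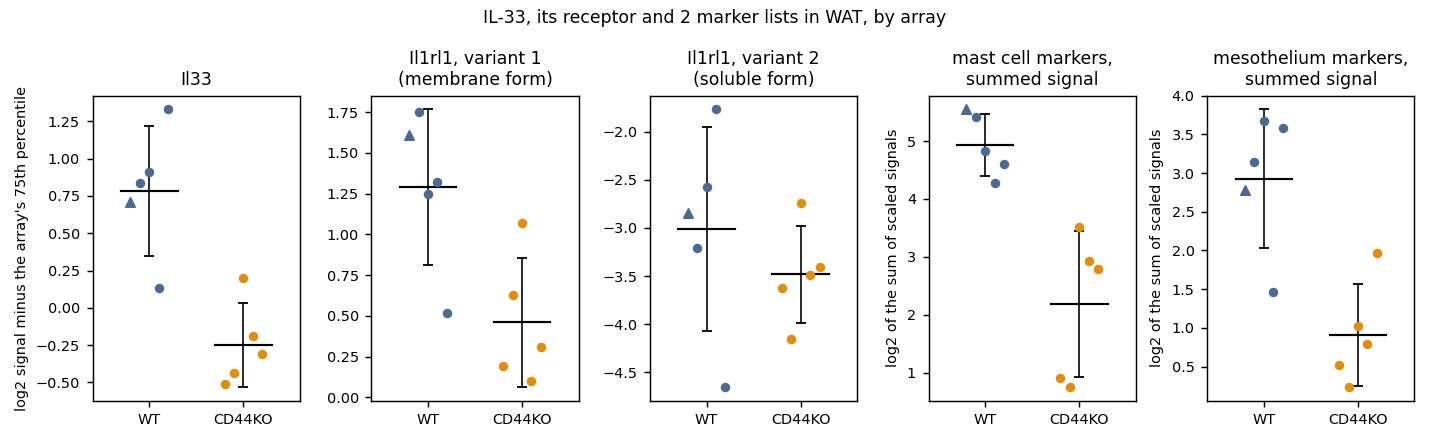
WAT arrays of both genotypes: scaled log2 signal of Il33 and of the membrane-form and soluble-form probes of Il1rl1, and the log2 of the summed scaled signal of mast cell and mesothelium markers (vertical axes). Points are arrays, the triangle is WT(HFD) replicate 1, and bars are the mean ± SD of 5 arrays. The genotypes overlap in Il33, in both Il1rl1 probes and in the mesothelium sum.

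In liver Il33 read -0.75, -0.98, -1.05, -1.63 and -1.15 in WT(HFD) and -1.48, -1.53, -1.24, -1.80 and -1.77 in CD44KO(HFD). All 5 CD44KO(HFD) arrays lay below the WT(HFD) mean, but WT(HFD) replicate 4 lay within their range. The difference was -0.45 ± 0.17 (adjusted p = 0.0942, limma; exact permutation p = 0.0476, two-sided), with -0.36, -0.56 and -0.43 within the 3 slides. It passed with array weights, at -0.48 (adjusted p = 0.0449, limma), where 19.7% of probes did, and without WT(HFD) replicate 4, at -0.58 (adjusted p = 0.0246, limma); over the 12 alternatives that keep all arrays the adjusted p ran from 0.0449 to 0.395. In liver the membrane-form probe of Il1rl1 was dim, measured above background in 4 WT(HFD) and 2 CD44KO(HFD) samples, and differed by -0.45 ± 0.33 (adjusted p = 0.375, limma). Its direction turned with the normexp background, at 0.23. Summed liver mast cell signal was 0.969 to 1.52 in WT(HFD) and 0.908 to 1.34 in CD44KO(HFD).

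Il18, a cytokine that liver cells make constitutively as a precursor, lay on opposite sides of WT(HFD) in the 2 tissues. In liver the WT(HFD) arrays read 0.43, 0.73, 0.79, 1.0 and 1.03, and the CD44KO(HFD) arrays 1.53, 1.42, 0.89, 1.15 and 1.06. CD44KO(HFD) replicate 3 was the one array inside the WT(HFD) range. The difference was 0.41 ± 0.15 (adjusted p = 0.0906, limma; exact permutation p = 0.0317, two-sided), and within slides it was 0.42, 0.25 and 0.74. It passed without CD44KO(HFD) replicate 3, at 0.49 (adjusted p = 0.0473, limma), and over the 10 fits that each left out 1 array the adjusted p ran from 0.0473 to 0.182.

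In WAT Il18 read -0.71, -0.81, -0.76, -0.87 and -0.55 in WT(HFD), a narrow range, and -1.49, -1.57, -0.73, -1.37 and -1.29 in CD44KO(HFD). CD44KO(HFD) replicate 3 was the only array within the WT(HFD) range. The difference was -0.55 ± 0.18 (adjusted p = 0.225, limma; exact permutation p = 0.0317, two-sided) and -0.54 ± 0.19 without WT(HFD) replicate 1 (adjusted p = 0.231, limma). Within slides it was -0.64 and -0.02, the latter resting on CD44KO(HFD) replicate 3 alone. With array weights it passed, at -0.52 ± 0.09 (adjusted p = 0.00867, limma; 0.00867 to 0.937 over the 12 alternatives that keep all arrays). With median scaling, which moved the median of all WAT probes to 0.42, it was -0.07, and over the 12 alternatives it ran from -0.57 to -0.07.

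The genotype effect on Il18 differed between WAT and liver by -0.96 ± 0.23 (unadjusted p = 0.000583, adjusted p = 0.0503, limma interaction term), just short of the threshold, where 1.15% of 28988 probes passed. It was -0.96 ± 0.24 without WT(HFD) WAT replicate 1 (adjusted p = 0.0569, limma). Testing only probes well above background on all 5 arrays of a group, with the same estimate, gave an adjusted p of 0.044, and array weights gave -0.91 (adjusted p = 0.00736); over the 9 alternatives that keep all arrays the adjusted p ran from 0.00736 to 0.688. Leaving out 1 array gave adjusted p-values of 0.0206 to 0.0998, and the difference passed without WT(HFD) liver replicate 4 (-1.02), CD44KO(HFD) liver replicate 3 (-1.04), WT(HFD) WAT replicate 4 (-1.0) or CD44KO(HFD) WAT replicate 3 (-1.10). For the other 9 members the adjusted p of this difference was 0.34 or higher. Of the other genes of this axis, named for their roles with their values known, Il18bp, the secreted inhibitor of IL-18, differed by -0.10 ± 0.20 in liver (adjusted p = 0.778) and by -0.44 ± 0.46 in WAT (adjusted p = 0.64, limma). The IL-18 receptor chain Il18r1 was not well above background on any liver array and differed by -1.03 ± 0.48 in WAT (adjusted p = 0.351, limma).

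Il1b, the inflammasome-processed ligand, spread more widely among CD44KO(HFD) livers than among WT(HFD) ones, with an SD of 0.91 against 0.27. The WT(HFD) arrays read -1.80, -1.71, -2.21, -1.68 and -2.22, and the CD44KO(HFD) arrays -0.78, -1.43, -0.84, -2.53 and -0.10. So 4 of the 5 CD44KO(HFD) arrays lay above all WT(HFD) arrays and replicate 4 lay below them all. The difference was 0.79 ± 0.38 (adjusted p = 0.181, limma; exact permutation p = 0.103, two-sided), and within slides it was -0.28, 1.54 and 1.43. Without CD44KO(HFD) replicate 4 it became 1.14 and passed (adjusted p = 0.0417, limma; 0.0417 to 0.323 over the 10 fits that left out an array). Kupffer cells, the resident liver macrophages, are a known source of IL-1beta. Summed Kupffer cell marker signal was 28.6 to 86.5 in WT(HFD) liver and 74.3 to 192 in CD44KO(HFD) liver, and 2 of 7 markers passed, Timd4 and Marco, which rose by 2.99 ± 0.83 and 2.95 ± 0.82 (adjusted p = 0.0414 and 0.041, limma). Of the 10 general macrophage markers, 3 passed and fell, with differences of -2.53 for Trem2, -2.01 for Itgax and -1.71 for Clec7a (adjusted p = 0.0103, 0.0284 and 0.0303, limma). Over all liver probes tested, 7.85% passed higher in CD44KO(HFD) and 5.75% lower. The summed macrophage signal overlapped, at 50.8 to 117 and 42.2 to 122. The part of these cells in the Il1b signal was not tested.

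In WAT the Il1b arrays ran from -4.38 to -2.38 in WT(HFD) and from -3.88 to -2.57 in CD44KO(HFD), a difference of 0.15 ± 0.45 (adjusted p = 0.877, limma) and of 0.39 ± 0.43 without WT(HFD) replicate 1 (adjusted p = 0.697). Il1a differed in liver by 0.42 ± 0.31 (adjusted p = 0.386, limma), with WT(HFD) at -5.19 to -3.56 and CD44KO(HFD) at -4.18 to -3.38. Its dimmer probe, read as well above background on 3 of 5 arrays of each liver genotype, also overlapped. In WAT both Il1a probes were well above background on WT(HFD) replicate 1 alone, where they read -2.31 and -1.10 against -8.74 to -6.69 on the other 9 arrays.

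Il1rn, the receptor antagonist, was lower in CD44KO(HFD) by both of its WAT probes without passing. The brightest probe ran from 0.58 to 1.24 in WT(HFD) WAT and from 0.18 to 0.80 in CD44KO(HFD) WAT, a difference of -0.36 ± 0.18 (adjusted p = 0.386, limma; -0.34 ± 0.19 without WT(HFD) replicate 1). The other probe, which crosses an intron, differed by -0.91 ± 0.38 (adjusted p = 0.304, limma; exact permutation p = 0.0476, two-sided) and by -0.72 ± 0.36 without that replicate. In liver the brightest probe differed by -0.61 ± 0.34 (adjusted p = 0.241, limma), with CD44KO(HFD) replicate 3 at -0.76 near the highest WT(HFD) array at -0.66 and the other 4 at -2.85 to -1.73, below every WT(HFD) array. Without CD44KO(HFD) replicate 3 the liver difference was -0.89 and passed (adjusted p = 0.0448, limma; 0.0448 to 0.441 over the 10 fits that left out an array). The second probe was well above background on 1 of 5 liver arrays of each genotype.

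Il1r1, the signalling receptor, overlapped between the genotypes in both tissues. It ran from 1.63 to 2.10 in WT(HFD) WAT and from 1.54 to 2.55 in CD44KO(HFD) WAT, a difference of 0.02 ± 0.21 (adjusted p = 0.97, limma; -0.05 ± 0.21 without WT(HFD) replicate 1), and in liver it differed by -0.26 ± 0.18 (adjusted p = 0.339, limma). Il1r2, the decoy receptor, could be read only in WAT, where its probes differed by -0.11 ± 0.33 and -0.62 ± 0.66 (adjusted p = 0.871 and 0.644, limma) and by 0.14 ± 0.26 and 0.04 ± 0.31 without WT(HFD) replicate 1. On that array they read -1.52 and -1.71, the highest values of either probe. Il1rap, the accessory chain that IL-1 and IL-33 receptors share, is not among the members and was the one of 2 IL-1 family chains tested in liver to pass: it rose in CD44KO(HFD) liver by 0.88 ± 0.20 (adjusted p = 0.0237, limma) and differed by 0.22 ± 0.24 in WAT (adjusted p = 0.642).

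Il6 in WAT was dim, and its difference changed with the array that stands apart. WT(HFD) replicate 1 read -3.91, above all CD44KO(HFD) arrays, and the other WT(HFD) arrays read -5.82, -6.50, -6.29 and -5.58, of which 1 was well above background. The CD44KO(HFD) arrays read -4.06, -4.54, -4.99, -4.97 and -5.23, all well above background. With all arrays the difference was 0.86 ± 0.46 (adjusted p = 0.401, limma; exact permutation p = 0.143, two-sided). Without WT(HFD) replicate 1 the difference was 1.29 ± 0.28 (adjusted p = 0.106, limma), against a group of which 1 of 4 arrays measured the probe, so that it had entered the test through CD44KO(HFD) alone. With signals raised to the floor of each array that difference was 1.22. With array weights it passed, at 0.93 ± 0.22 (adjusted p = 0.0251, limma; 0.0251 to 0.949 over the 12 alternatives that keep all arrays), but the difference itself ran from 0.04 with the normexp background to 1.68 with quantile normalization. Within slides it was 0.21 on the slide with WT(HFD) replicate 1 and 0.98 on the other. In liver Il6 ran from -2.91 to -1.79 in WT(HFD) and from -2.99 to -1.90 in CD44KO(HFD), a difference of 0.05 ± 0.25 (adjusted p = 0.914, limma).

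Tnf was lower in CD44KO(HFD) in both tissues by similar amounts, in neither beyond the adjusted threshold. In liver the WT(HFD) arrays, at -4.22 to -3.66, were all well above background, and the CD44KO(HFD) arrays read -4.90, -5.26, -4.09, -5.16 and -3.52, of which 3 were. The difference was -0.60 ± 0.32 (adjusted p = 0.22, limma; exact permutation p = 0.143, two-sided), with -1.33, 0.17 and -0.68 within slides, and it turned to 0.16 with the normexp background. In WAT the WT(HFD) arrays ran from -2.91 to -1.43 and the CD44KO(HFD) arrays from -3.29 to -2.60. The difference was -0.62 ± 0.28 (adjusted p = 0.343, limma; exact permutation p = 0.0476, two-sided), or -0.62 ± 0.30 without WT(HFD) replicate 1 (adjusted p = 0.378), and it turned to 0.11 with quantile normalization, under which the median of all probes was 0.10. Within slides the WAT difference was -0.29 and -1.08, the latter against a single CD44KO(HFD) array. Over the 10 fits that left out 1 array it ran from -0.76 to -0.39, and WT(HFD) replicate 5 held the highest value, -1.43. Across both tissues 20 exact permutation tests were run on the brightest probes.

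The wider pathway held 103 genes outside the 10 members, in 8 lists by role. In liver 14 of the 79 that could be tested passed, 9 lower and 5 higher in CD44KO(HFD), where 5.75% of all probes were lower and 7.85% higher. Of 16 NF-kappaB feedback and target genes tested, 3 fell and 0 rose, with a median of -0.27 beside 0.08 over all probes: the differences were -1.16 ± 0.20 for Vcam1, the leukocyte adhesion molecule, -1.23 ± 0.35 for Ier3, an early response gene, and -0.64 ± 0.16 for Nfkb2, the p100 subunit (adjusted p = 0.0121, 0.045 and 0.033, limma). Of 8 inflammasome genes tested, 2 fell, the adaptor Pycard at -0.44 ± 0.12 and Pstpip1, a pyrin-binding protein, at -1.24 ± 0.25 (adjusted p = 0.04 and 0.0176, limma), and 0 rose. Of 14 genes of TNF relatives and signalling, 3 fell and 1 rose: Traf1, a signalling adaptor, differed by -0.83 ± 0.15, lymphotoxin beta (Ltb) by -0.73 ± 0.15, Adam17, the protease that sheds TNF, by -0.28 ± 0.07, and the receptor adaptor Tradd by 0.21 ± 0.06 (adjusted p = 0.0144, 0.0178, 0.0336 and 0.045, limma).

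Of 15 IL-6 family genes tested in liver, Il6st, the shared signalling chain gp130, fell by 0.39 ± 0.08, and the receptor Lifr and the ligand Ctf1 rose by 1.01 ± 0.30 and 0.46 ± 0.09 (adjusted p = 0.0196, 0.0491 and 0.0161, limma). None of the 17 genes of IL-1 receptor signalling, from Myd88 to Rela, passed in liver (median 0.05). Of 5 genes of IL-33 responder cells tested, Icos, a T cell co-stimulator, rose by 0.90 ± 0.16 (adjusted p = 0.0129, limma). Neither Il1f8, another IL-1 family ligand, nor the IL-18 inhibitor Il18bp, which was listed with the ligands, passed. Lymphocyte and stromal markers moved in the same livers. Of these, 4 of 8 T cell, 4 of 5 NK cell and 6 of 9 fibroblast and stromal cell markers fell, where 5.75% of all probes did. Cd8a, Prf1 and Gzma among them were tested only because WT(HFD) livers measured them. Cd8a was well above background on 0 CD44KO(HFD) livers, Prf1 on 1 and Gzma on 1. The summed NK cell signal was 0.423 to 0.727 in WT(HFD) and 0.195 to 0.303 in CD44KO(HFD). The part of all these markers in the pathway calls was not tested.

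In WAT 0 genes of the 8 lists passed, with or without WT(HFD) replicate 1, where 0.0398% and 0.0687% of all probes did. The inflammasome genes were the most one-sided, with 10 of 10 lower and a median of -0.23, or 9 of 10 and -0.29 without that replicate. Of all probes 55.3% were lower, or 45.9% without it. The medians were -0.35 for 15 IL-6 family genes, -0.05 for 15 genes of TNF relatives and signalling, 0.01 for 17 NF-kappaB genes and 0.11 for 17 genes of IL-1 receptor signalling. Without that replicate these 4 medians were -0.18, -0.10, -0.03 and 0.10. In the shorter lists the medians were -0.61 for 8 genes of IL-33 responder cells, 0.08 for 4 IL-1 family receptor chains and -0.18 for the 2 genes listed with the IL-1 family ligands. With array weights 10 genes of the 8 lists passed, all lower, of which 4 belonged to the IL-6 family list and 3 to the inflammasome list, where 4.73% of all probes fell.

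**Figure D4:**
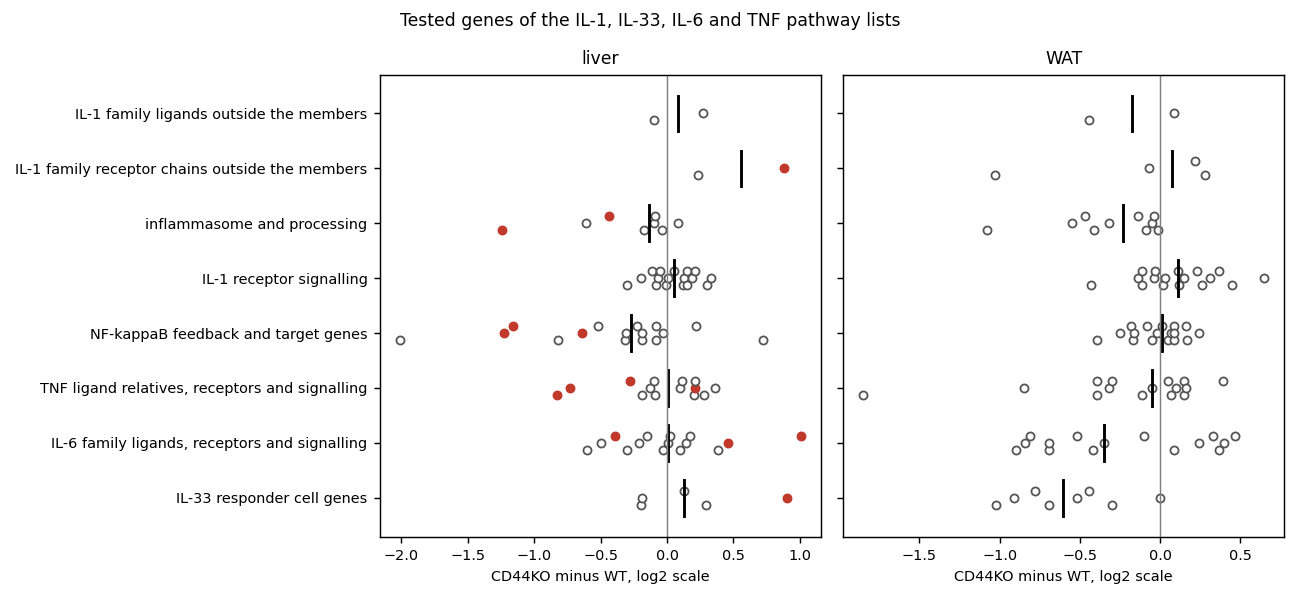
Difference between CD44KO(HFD) and WT(HFD) on the log2 scale (horizontal axis) for every tested gene of the 8 pathway lists in liver and in WAT. Filled points passed an adjusted p of 0.05 and black ticks are the median of a list; the 14 filled points are all in liver, 9 of them below 0.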

How the data were processed

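RNA from liver and WAT was hybridised to 20 Agilent 44k mouse arrays of 1 colour, 5 per group. Per the file headers, the deposited intensity values are gProcessedSignal from Agilent Feature Extraction 9.5, a version given in the submitters' processing notes, made by the authors without background subtraction, with spatial detrending and with substituted values for signals too dim to measure; the headers name the mm7 build, and the series table held the same values. Such substitutes can compress differences of faint probes, and Il6 and Il1a in WAT were faint.

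From these, log2 intensity minus the 75th percentile of each array was computed, leaving out control and outlier spots and averaging repeated spots. A probe was tested if 3 or more of the 5 arrays of some group read it well above background. Tests were made within each tissue with limma 3.58.1 (R 4.3.3) and Benjamini-Hochberg adjustment at 0.05 over all probes. The difference between tissues, and of the genotype effect between them, came from a fit of all 20 arrays. Single probes were also tested by a two-sided exact permutation test over 252 relabellings, or 126 without 1 array, whose smallest p is 0.00794. The procedure was tested on simulated data. The number of arrays limits the precision. The paper names no test for the arrays.

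The members, gene lists and marker lists were chosen with earlier results of these data known. Pathway genes past the threshold with the largest changes, at most 4 per list, and at most 3 markers per list were to be named; other named genes are marked as such. Genes with patterns like a member were to be named only for members past the threshold, and none was. Alternatives were normexp with an offset of 50, quantile and median scaling, other filters on dim probes, a floor, outlier spots kept, array weights, slide as a block, a replicate block, all arrays in 1 fit, and each array left out; those for the markers and the tissue difference were added after seeing the data. Symbols of 22951 probes were matched to a RefSeq table, and promoter sequences were taken from RefSeq on GRCm38.p6.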

Additional observations from a re-analysis of the deposited data

Results flagged for a closer look

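In 64 groups of 5 arrays, 6 held 1 array set apart from the others by Dixon's criterion, 9.38% where chance gives about 5%. Of these 6, 5 concerned WT(HFD) WAT replicate 1. On that array Il1a read -2.31 by its brightest probe, against -6.69 for the nearest of the group, and -1.10 by its other probe, against -7.25. The second Il1r2 probe read -1.71 there, against -4.66, and the Il1rl1 probe across an intron read -1.40, against -5.61. The share of spots well above background was 89.54% on that array and 69.49% on the next. The sixth was the soluble-form probe of Il1rl1, which read -2.41 in WT(HFD) liver replicate 2 and -6.80 or lower in the other 4, none of which was well above background.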

How the results depend on the processing

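No member passed the threshold in either tissue as tested, and most alternatives kept that count. Array weights gave 1 member in liver and 4 in WAT, and the fit of all 20 arrays gave 1 in WAT. Leaving out 1 array gave 0 to 2 in liver and 0 in WAT, and 0 to 1 for the difference of the genotype effect between tissues, which was 1, Il18, with the filter of all 5 arrays and with array weights. The count of all probes past the threshold moved more. In liver it was 3358 as tested, 641 with normexp, 1027 without a filter, 1329 with the replicate block and 723 with all 20 arrays, and 858 to 4647 with 1 array left out. In WAT it was 11 as tested, 35 with normexp, 19 with median scaling, 3 without a filter, 2851 with array weights, 4 with slide as a fixed block, 3 with the replicate block and 1817 with all 20 arrays, and 3 to 19 with 1 array left out. The cause of these shifts was not tested.

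Some directions turned. In liver they did for Il1rl1 (0.23) and Tnf (0.16) with normexp and for Il6 with outlier spots kept (-0.16). In WAT they did for Il1b with normexp (-0.09) and slide as a fixed block (-0.25), for Il1r1 with normexp (-0.01), quantile normalization (-0.12), array weights (-0.27) and slide as a fixed block (-0.02), for Il1r2 with quantile normalization (0.30) and median scaling (0.37), for Tnf with quantile normalization (0.11) and for Il1rn with median scaling (0.12), which moved the median of all WAT probes to 0.42. The difference between tissues of the genotype effect turned for Il1r2 with normexp (-0.44) and the floor (-0.09), Il6 with normexp (-0.05), Il1b with quantile normalization (0.06), Tnf with quantile normalization (0.72), median scaling (0.45) and outlier spots kept (0.05), Il1rl1 with median scaling (0.09) and Il1r1 with array weights (-0.04). WT(HFD) WAT against liver turned for Il1b (0.59) and Il18 (0.57) with unscaled signals. With 1 array left out, Il6 in liver ran from -0.10 to 0.23, Il1b in WAT from -0.09 to 0.41, Il1r1 in WAT from -0.14 to 0.11, Il1r2 in WAT from -0.26 to 0.14, and the difference between tissues for Tnf from -0.19 to 0.25.

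Mast cell markers past the threshold in WAT numbered 0 of 9 as tested, 8 with array weights and 1 without WT(HFD) WAT replicate 1. Between the genotypes, arrays of equal number correlated at -0.038 to 0.417 in liver and -0.212 to 0.092 in WAT. Between liver and WAT they correlated at -0.21 to 0.141 in WT(HFD) and -0.041 to 0.149 in CD44KO(HFD). These values cannot decide whether equal numbers in liver and WAT are the same mouse. The labels do not state it, and the numbers were not taken to pair samples. With the replicate block 0 members passed in liver, in WAT or for the difference between tissues. Signal near background limits Il1a and Il6 in WAT, and Il1a, Il1r2, Il1rl1 and Tnf in liver.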
